A study of Mus musculus with 6 samples.

Results

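The IER genes are a small group of mouse genes named for their immediate early response to growth factors, and Ier2, Ier3, Ier5 and Ier5l were described here by the occupancy of RNA polymerase II (Pol II) on them in neural precursor cells (NPCs) with and without Armc5. The members were taken by symbol, and all 4 listed were measured, as 4 of the 12107 genes and 12 of the 36321 gene regions counted. Occupancy came from ChIP-seq, in which DNA bound by a protein is precipitated and sequenced. The antibody was raised against the N-terminal domain of RPB1, the largest Pol II subunit, encoded by Polr2a. The NPCs were second-passage neurospheres grown with epidermal growth factor (EGF) from e13.5 ganglionic eminences. Of the 6 libraries 3 were from wild-type (WT) cells and 3 from Armc5(-/-) cells (knockout, KO), in replicate pairs 1 to 3, and both genotypes carried the strain label 129 sv X CD1. The study's methods call these pairs biological replicates, and the labels do not say which fetuses or cultures each library came from. The methods also name another background for the mice, a CD1 cross without mention of 129 sv, and this difference is not resolved here. ARMC5 is the substrate-recognition subunit of an E3 ubiquitin ligase for RPB1, and the knockout was a germline one, not limited to neural cells. Armc5 itself was not analysed here, so the genotypes rest on the labels.

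Immediate early genes are transcribed within a short time of a signal and need no new protein synthesis for it. In the usual route, an EGF receptor signals through RAS and ERK to serum response factor (SRF) and its partners, which are already on the promoter, and Pol II that waits near the start site is released into the gene. IER2, IER5 and IER5L are related proteins that share an N-terminal IER domain, while IER3 is unrelated in sequence and carries the name for its kinetics. IER2 is a nuclear protein induced by serum and growth factors. IER3, also known as IEX-1, is induced by growth factors, NF-kB and stress and acts on cell survival and on ERK signalling. IER5 is induced by radiation and heat and brings protein phosphatase 2A (PP2A) to targets such as the heat shock factor HSF1, and IER5L is its less studied relative.

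All 4 genes are short, which matters for how the windows were drawn. In GRCm38 with the GENCODE vM21 annotation, Ier2 lies on the minus strand at chr8:84661331-84662852 and has 1 exon. Ier3 lies on the plus strand at chr17:35821684-35822923 and has 2 exons. Ier5 lies on the minus strand at chr1:155096361-155099636 with 1 exon, and Ier5l on the minus strand at chr2:30471537-30474219, also with 1 exon. The authors counted reads in 3 windows per gene. The promoter window reached from 400 bases before the transcription start site (TSS) to 100 bases after it. The gene body window held what lay between that point and 100 bases before the transcription end site (TES), and the TES window ran on from there to 2000 bases past the end. The gene body windows of the members were therefore 1321, 1039, 3075 and 2482 bases long for Ier2, Ier3, Ier5 and Ier5l, against a median of 24115 over 12060 gene bodies with a length, and they lay within exons apart from the intron of Ier3.

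The promoter sequences are shown because the promoter window is set against the gene body in the comparisons of KO with WT. They are the 250 bases before the RefSeq start in GRCm38.p6, written 5′ to 3′ on the strand of the gene, for the 3 of 4 members that matched an entry. They cover chr17:35821463-35821712 on the plus strand for Ier3, chr1:155099637-155099886 on the minus strand for Ier5 and chr2:30474200-30474449 on the minus strand for Ier5l. Capitals mark matches to the motifs searched.
Ier3: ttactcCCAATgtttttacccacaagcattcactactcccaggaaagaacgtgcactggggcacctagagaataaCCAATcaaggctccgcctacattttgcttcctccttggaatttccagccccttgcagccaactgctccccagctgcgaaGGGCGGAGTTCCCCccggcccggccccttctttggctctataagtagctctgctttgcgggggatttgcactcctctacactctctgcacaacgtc
Ier5: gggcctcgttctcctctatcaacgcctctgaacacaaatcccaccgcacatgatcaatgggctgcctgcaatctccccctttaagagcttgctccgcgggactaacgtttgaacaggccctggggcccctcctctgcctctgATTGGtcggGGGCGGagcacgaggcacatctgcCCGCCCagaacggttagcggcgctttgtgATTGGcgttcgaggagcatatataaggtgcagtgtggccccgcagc
Ier5l: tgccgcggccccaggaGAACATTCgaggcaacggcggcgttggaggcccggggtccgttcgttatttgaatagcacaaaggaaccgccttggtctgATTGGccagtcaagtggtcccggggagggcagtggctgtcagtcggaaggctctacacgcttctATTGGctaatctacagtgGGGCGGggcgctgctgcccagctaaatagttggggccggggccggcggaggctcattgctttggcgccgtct
The motifs, searched on both strands, were TATAAA (the TATA box), CCAAT (the CCAAT box), GGGCGG (the GC box), the CArG box bound by SRF, TGACGTCA (the cAMP response element), TGACTCA (the AP-1 site), the NF-kB site and GAANNTTC (the core of the heat shock element). Every one of the 3 promoters held 2 CCAAT boxes, on the plus strand in Ier3 and on the minus strand in Ier5 and Ier5l, and at least 1 GC box. Over all 32851 promoters of this length in the table, 33.8% held CCAAT and 32.7% held GGGCGG. Ier5 held 2 GC boxes, on opposite strands. In Ier3 the GC box overlapped a match to the NF-kB site, which 3.90% of promoters held, and Ier5l held a match to GAANNTTC, which 6.69% of promoters held. None of the 3 windows held TATAAA, the CArG box, TGACGTCA or TGACTCA, which were found in 12.4%, 1.47%, 1.55% and 4.46% of all promoters. Of the TATA box only the spelling TATAAA was searched, so TATATAAG in Ier5 and TATAAG in Ier3 did not count. A match describes the letters and no match says only that they are not in these 250 bases. The GC content was 54.4% for Ier3, 60.0% for Ier5 and 62.4% for Ier5l, above the median of 52.4%, and the windows held 8, 16 and 20 CpG pairs against a median of 6.

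The libraries held 14528870 to 25199455 reads over all windows, and WT replicate 3 and KO replicate 3 were the smallest. Promoters took 6.04% of the reads in WT replicate 3 and 6.88% in KO replicate 3, and 10.9% to 12.2% in the other 4 libraries. WT replicate 3 had almost no Y-linked signal (0.619 CPM, counts scaled to the library total, against 124 to 234 elsewhere), and the 4 members are on autosomes. Its partner, KO replicate 3, had 124 CPM. In pair 3 an effect of this mismatch, also on autosomal genes, cannot be told apart from that of genotype. The cell type in the labels was checked on gene bodies. Of 11 markers of neural stem and precursor cells 10 were measured, and their summed signal was 260 to 541 CPM in WT and 299 to 570 CPM in KO. Neuronal markers (4 of 5 measured, 578 to 866 CPM in WT and 614 to 794 in KO) and oligodendrocyte lineage markers (3 of 4 measured, 83.3 to 315 CPM and 88.2 to 286) also had signal. These sums were not divided by length, so they do not rank the cell types. Map2 made up most of the neuronal sum, with 446 to 807 CPM in WT and 457 to 733 in KO. Tubb3 had 13.3 to 28.5 and 14.2 to 33.5 CPM, Dcx 31.0 to 90.3 and 28.6 to 62.3, and Stmn2 14.4 to 56.5 and 14.2 to 62.6. None of the 3 astrocyte, 5 microglia and blood or 4 mesenchymal markers was among the genes analysed, and of 3 endothelial markers only Kdr was. No marker was called between KO and WT. Scaling used the libraries' own counts and no external standard, so a shift common to every gene would not show, and a change in the share of cells that use a gene cannot be told apart from a change per cell.

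Levels of the 4 genes in WT cells were compared per length, as CPM per kilobase after scaling by the trimmed mean of M values (TMM). In the promoter window, Ier2 had 51.3 ± 13.8 CPM per kilobase (SD, n = 3 here and below), Ier5l 48.4 ± 23.3, Ier5 39.3 ± 15.2 and Ier3 20.6 ± 11.1. These levels stood at the 99.1, 98.8, 97.1 and 76.7 percentiles of all genes, whose median was 11.4. In the gene body, Ier2 had 15.8 ± 4.47 CPM per kilobase, Ier5l 9.91 ± 3.46, Ier3 6.28 ± 3.26 and Ier5 4.21 ± 1.70, against a median of 1.41 over all gene bodies. All 4 were thus in the upper part of the gene body levels, at the 99.4, 98.4, 96.2 and 92.6 percentiles, although without the division by length they were at the 28.5, 34.6, 4.66 and 14.8 percentiles of gene body CPM. The lowest and highest WT libraries of neighbours in the gene body order overlapped (Ier2 11.6 to 20.5, Ier5l 6.06 to 12.7, Ier3 3.34 to 9.79, Ier5 2.67 to 6.03). Within libraries, Ier5l was above Ier3 in each WT library, while the other neighbours had the opposite order in WT replicate 1. The level of Ier5l depends on its annotated end, since RefSeq gives a gene at chr2:30472631-30474199, with which its gene body level would be 18.0 ± 6.27 and the highest of the 4. Which annotation the authors counted with is not given in the sources used.

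**Figure D1:**
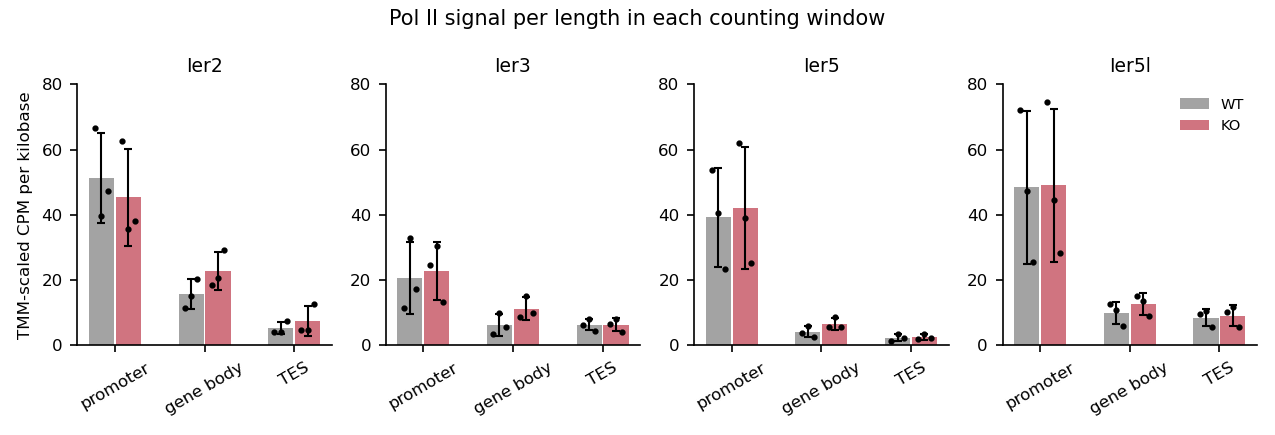
Signal per length (TMM-scaled CPM per kilobase, axis from 0) of the promoter, gene body and TES windows of Ier2, Ier3, Ier5 and Ier5l in WT (grey) and KO (red), with window lengths from GENCODE vM21, bars for means, whiskers for the SD and points for the 3 libraries. Ier2 has the highest WT means (51.3 in the promoter and 15.8 in the gene body), and each gene has more signal per kilobase in the promoter window than in the gene body.

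The question of the comparison was where along these genes Pol II occupancy differed when ARMC5 was lost. Pol II rose on the gene bodies of Ier2 (1.44-fold) and Ier3 (1.84-fold) in KO cells, at an adjusted p under 0.1 in limma-voom, blocked by replicate pair and adjusted over all 36321 regions. The gene bodies of Ier5 (1.54-fold) and Ier5l (1.27-fold) were also higher in 3 of 3 pairs and did not pass. No promoter or TES window of the 4 genes was called. Of all gene bodies 0.173% were called higher and 0.033% lower, of promoters 0.165% and 0.00826%, and of TES windows 0.0248% were called higher and 0 lower. Over all genes 13.7% of gene bodies, 18% of promoters and 7.86% of TES windows were higher in 3 of 3 pairs, as were the gene bodies of all 4 members, none of their promoters and the TES windows of Ier2 and Ier5l. In none of the 12 windows were all KO libraries above all WT libraries, which held for 1.5% of gene bodies, 2.24% of promoters and 0.809% of TES windows. The median log2 fold change of the 4 gene bodies was 0.58, and that of all gene bodies was -0.01. The study had itself listed Ier2 and Ier3 from these libraries, so their direction here is not independent evidence.

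Ier2, the serum-inducible nuclear factor, had gene body levels of 15.3, 20.2 and 27.1 CPM in the WT libraries and 24.3, 27.1 and 38.7 CPM in the KO libraries, given here and below in the order of pairs 1 to 3. The KO library was higher in each pair, by 0.67, 0.43 and 0.52 on the log2 scale, and the groups overlapped because WT replicate 3 was above KO replicate 1. The log2 fold change was 0.53 ± 0.10 (SE, 95% interval 0.32 to 0.74, limma adjusted p = 0.0934). The Ier2 promoter had 33.3, 19.9 and 23.7 CPM in WT and 31.3, 17.8 and 19.1 CPM in KO. Here the KO library was lower in 3 of 3 pairs by a small amount, and the log2 fold change of -0.16 ± 0.10 did not pass (limma adjusted p = 0.701). The TES window had 8.79, 8.86 and 15.4 CPM in WT and 10.1, 9.83 and 26.5 CPM in KO. KO replicate 3 stood above the other 5 libraries, and the log2 fold change of 0.40 ± 0.15 did not pass (limma adjusted p = 0.502).

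Ier3, the stress-inducible survival factor, had the largest fold change of the 4 genes and the lowest counts, between 71 and 330 reads per gene body. Its gene body had 3.47, 10.2 and 5.93 CPM in WT and 9.07, 15.8 and 10.2 CPM in KO. The second pair was the highest of both genotypes, the KO library was higher in each pair by 1.38, 0.64 and 0.78 on the log2 scale, and the groups overlapped. The log2 fold change was 0.88 ± 0.16 (95% interval 0.53 to 1.23, limma adjusted p = 0.0930), the 16th highest of the 12107 gene bodies. The Ier3 promoter had 5.71, 16.5 and 8.69 CPM in WT and 12.3, 15.3 and 6.58 CPM in KO. The pairs disagreed in sign there (1.11, -0.11 and -0.40 on the log2 scale), and the log2 fold change was 0.21 ± 0.21 (limma adjusted p = 0.827).

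The TES window of Ier3 is not its own. Flot1, which encodes the membrane raft protein flotillin-1 and lies on the same strand, starts 306 bases past the end of Ier3, and its first 1694 bases and its whole promoter window fall in the TES window of Ier3. Reads in the Flot1 promoter window made up 37.6% to 50% of the Ier3 TES count of a library. Flot1 gene body sequence in the Ier3 TES window was left out of this share and of the subtraction below. The Ier3 TES window had 13.4, 16.7 and 9.50 CPM in WT and 13.5, 17.3 and 8.92 CPM in KO. Both genotypes were alike in each pair to within 0.09 on the log2 scale, with a log2 fold change of 0.01 ± 0.12 (95% interval -0.25 to 0.26, limma adjusted p = 0.995), and with the Flot1 promoter reads subtracted it was -0.06. No annotated gene overlapped another window of the 4 genes.

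Ier5, the partner of PP2A and HSF1, had gene body levels of 12.1, 18.6 and 8.20 CPM in WT and 17.3, 26.7 and 16.9 CPM in KO. The KO library was higher by 0.52, 0.52 and 1.04 on the log2 scale in pairs 1 to 3, and the groups overlapped because WT replicate 2 was above 2 of the KO libraries. The log2 fold change of 0.62 ± 0.12 (95% interval 0.36 to 0.89) missed the threshold with a limma adjusted p of 0.113. The Ier5 promoter had 26.9, 20.3 and 11.8 CPM in WT and 31.1, 19.5 and 12.6 CPM in KO, and its TES window 2.88, 7.28 and 4.79 against 3.85, 7.29 and 4.74 CPM. In neither window did the genotypes separate, with log2 fold changes of 0.09 ± 0.10 (limma adjusted p = 0.845) and 0.12 ± 0.17 (limma adjusted p = 0.891).

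Ier5l, its relative, had the smallest difference. Its gene body had 31.6, 27.2 and 15.0 CPM in WT and 37.9, 34.1 and 22.3 CPM in KO. The KO library was higher in each pair by 0.26, 0.33 and 0.57 on the log2 scale, the groups overlapped, and the log2 fold change was 0.34 ± 0.09 (95% interval 0.14 to 0.54, limma adjusted p = 0.312). Its promoter had 36.1, 23.7 and 12.8 CPM in WT and 37.3, 22.3 and 14.1 CPM in KO. Replicate 1 was the highest and replicate 3 the lowest in both genotypes, and the log2 fold change was 0.01 ± 0.09 (limma adjusted p = 0.983). The TES window had 20.1, 22.0 and 11.6 CPM in WT against 21.3, 24.5 and 11.8 CPM in KO, with a log2 fold change of 0.10 ± 0.10 (limma adjusted p = 0.824).

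**Figure D2:**
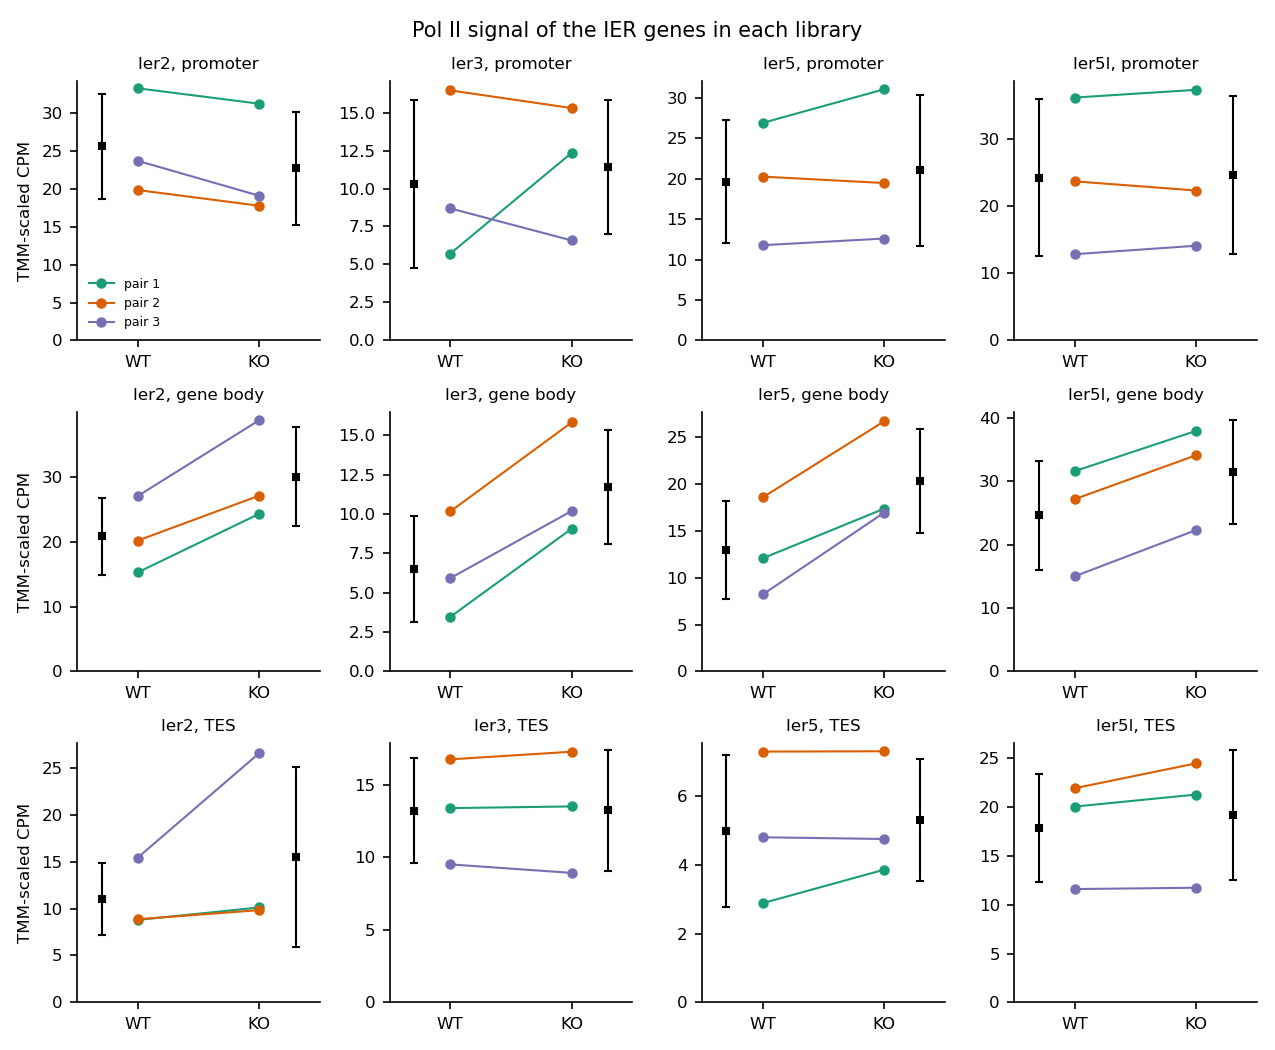
TMM-scaled CPM of the 3 windows of each IER gene in WT and KO libraries (points joined within replicate pairs, black squares with whiskers for mean and SD, axes from 0). The KO point is above its WT partner in all 3 pairs of every gene body, the groups overlap in all 12 panels, and the promoters show no common direction.

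**Figure D3:**
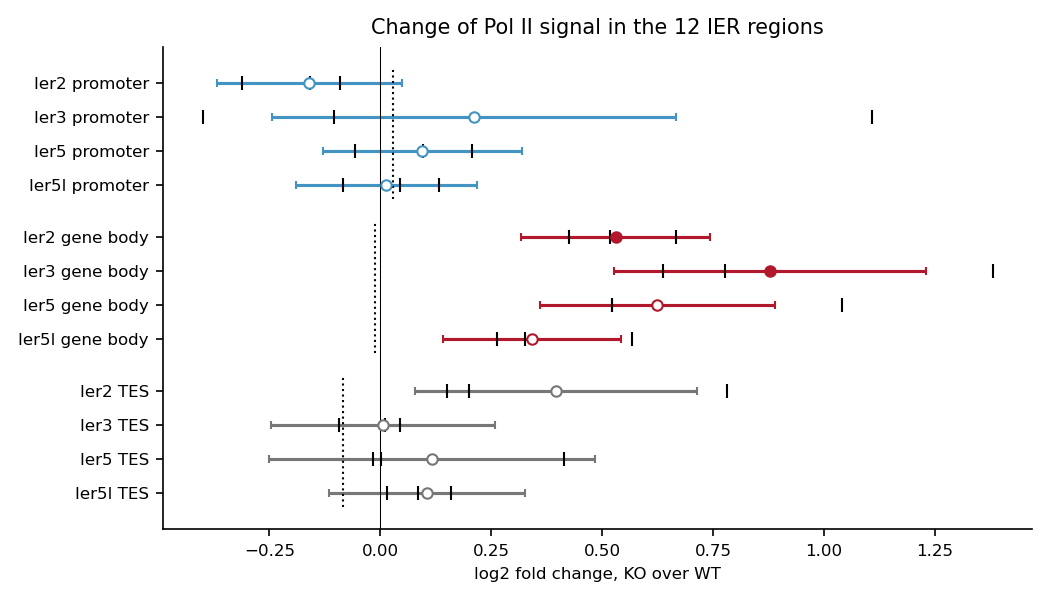
Log2 fold change (KO against WT) of the 12 windows with 95% intervals, filled where called at an adjusted p under 0.1, with ticks for the 3 pairs and a dotted line for the median of all genes in that window. The intervals of the 4 gene bodies lie above 0, and of the other windows the same holds for the TES window of Ier2 (0.08 to 0.71).

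The 2 calls were near the threshold. Of 19 alternatives 8 ended the call of Ier2 and 7 that of Ier3, while the 4 gene body log2 fold changes stayed above 0 in each. Both calls were lost without the replicate block (limma adjusted p = 1.00 for both), on the deposited log2 CPM (0.589 for both), without pair 2 (0.367 for Ier2 and 0.312 for Ier3), without WT replicate 2 (0.215 and 0.151), with each window kind scaled and adjusted on its own (0.215 and 0.291), with TMM on the lowest-signal gene bodies (0.180 and 0.178) and with library totals alone (0.139 and 0.143), and without KO replicate 2 that of Ier2 was lost (0.140). The alternatives that leave out libraries are not separate checks. Under the block, a library without its partner adds nothing to the KO effect. Fold changes without 1 library therefore nearly repeat those without its pair, while the adjusted p-values need not. For the Ier3 gene body the limma adjusted p was 0.312 without pair 2, 0.151 without WT replicate 2 and 0.0694 without KO replicate 2. The Ier2 gene body log2 fold change was 0.60 without pair 2, 0.59 without WT replicate 2 and 0.58 without KO replicate 2. The 670 other gene bodies of 998 to 3075 bases had a median log2 fold change of 0.11, 69.9% of them were above 0, and 5 (0.746%) were called higher and 0 lower. The part of gene length in the results of the 4 members was not tested.

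**Figure D4:**
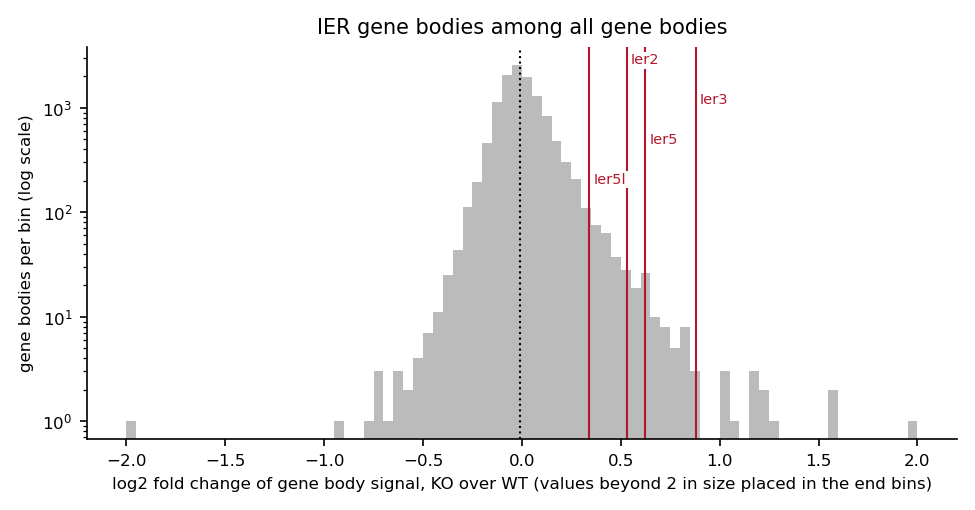
Distribution of the log2 fold changes (KO against WT) of all 12107 gene bodies, counted per bin on a log axis, with red lines for the 4 IER genes and a dotted line for the median of -0.01. The 4 genes lie at 0.34 to 0.88, at the 97.47 percentile of all gene bodies or higher.

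Because promoter and gene body windows of a gene are read in the same library, their ratio does not depend on how libraries were scaled, up to a constant shared by all genes. After adding 0.5 to every count, the promoter to gene body ratio was lower in KO in 3 of 3 pairs for each of the 4 genes, as it was for 14.7% of the 12096 genes tested, and none of the 4 changes passed the test, which called 4 genes (0.0331%). The ratio of Ier3 was 1.64, 1.62 and 1.46 in WT and 1.36, 0.967 and 0.647 in KO. Its groups did not overlap, as in 0.934% of all genes for this direction, and the log2 change was -0.73 ± 0.22 (limma adjusted p = 0.304). The ratio of Ier2 was 2.18, 0.984 and 0.877 in WT and 1.29, 0.657 and 0.494 in KO, with a log2 change of -0.72 ± 0.19 (limma adjusted p = 0.281). Pair 1 was the highest of both genotypes for Ier2, and likewise for Ier5, with 2.23, 1.09 and 1.43 in WT and 1.79, 0.730 and 0.745 in KO (log2 change -0.61 ± 0.21, limma adjusted p = 0.339). For Ier5l the ratio was 1.14, 0.871 and 0.854 in WT and 0.983, 0.654 and 0.632 in KO (log2 change -0.35 ± 0.18, limma adjusted p = 0.517). The median log2 change over all genes was 0.01, and it was -0.10 over 669 short genes, of which 61.1% were below 0.

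The ratio of TES to gene body counts changed in no member by the test, which called 1 of 12076 genes (0.00828%). It was lower in KO in 3 of 3 pairs for Ier3, Ier5 and Ier5l and in 2 of 3 for Ier2, against 22.7% of genes lower in 3 of 3. For Ier3 it was 3.84, 1.64 and 1.60 in WT and 1.49, 1.09 and 0.875 in KO, and the groups did not overlap, as in 5.97% of genes. Its log2 change was -0.94 ± 0.20 (limma adjusted p = 0.470), and the Flot1 reads named above are part of the numerator. The log2 changes of Ier5, Ier5l and Ier2 were -0.56 ± 0.21 (limma adjusted p = 0.622), -0.30 ± 0.18 (0.738) and -0.16 ± 0.19 (0.861), and the median over all genes was -0.08. Taken as a share of all reads in the 3 windows of a gene, the gene body of Ier2 held 36.3% ± 8.33 in WT and 44.1% ± 6.45 in KO, that of Ier3 21.1% ± 5.02 and 32.8% ± 6.85, that of Ier5 34.1% ± 5.78 and 44.2% ± 9.50, and that of Ier5l 37.1% ± 1.06 and 42.6% ± 3.53. These shares were higher in KO in 3 of 3 pairs for all 4 genes, as for 18.1% of all genes, and for Ier3 and Ier5l the KO libraries were all above the WT libraries, as for 2.02% of all genes.

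**Figure D5:**
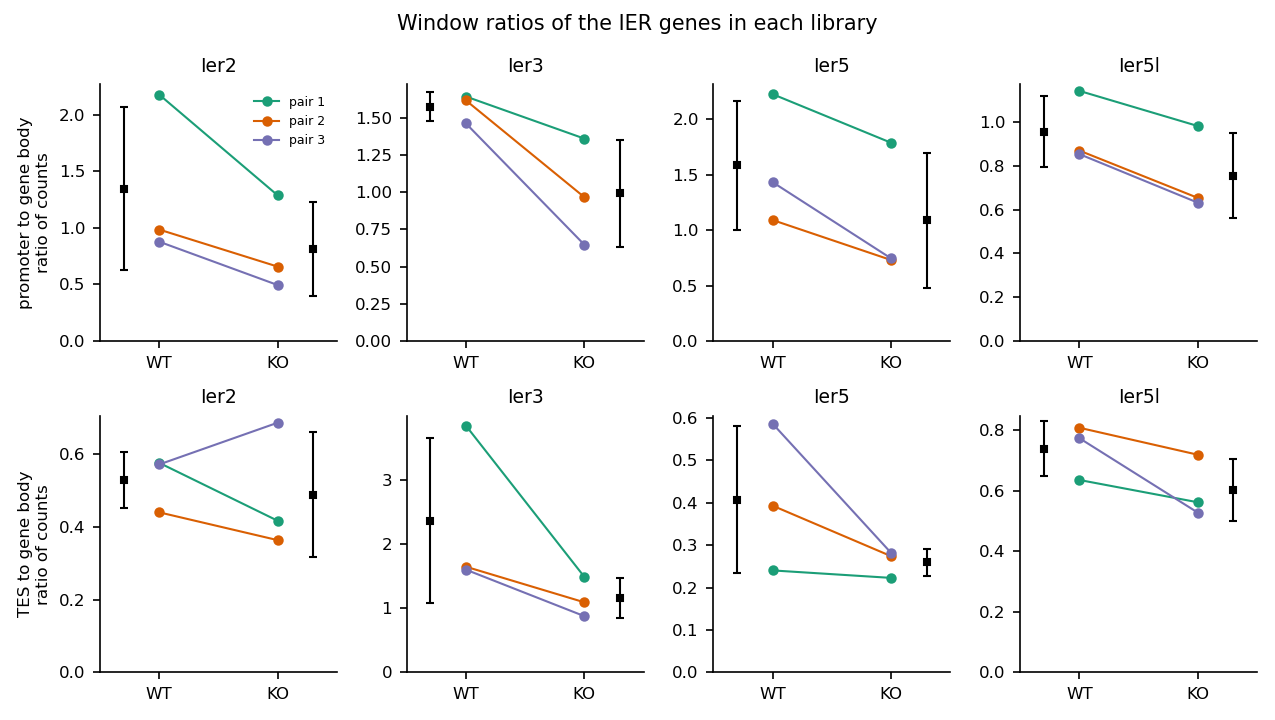
Ratio of promoter to gene body counts and of TES to gene body counts of the 4 IER genes in WT and KO libraries, as points joined within replicate pairs, with black squares and whiskers for mean and SD and axes from 0. The promoter to gene body ratio is lower in KO in all 3 pairs of each gene, and only for Ier3 do the groups not overlap (1.46 to 1.64 in WT and 0.647 to 1.36 in KO).

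The other genes of the pathway were described by lists. Of 58 immediate early genes outside the IER family 48 were measured, and 5 gene bodies rose and 0 fell, with 44 of 48 log2 fold changes above 0 and a median of 0.20. Over all gene bodies 0.173% were called higher, 45.3% were above 0 and the median was -0.01. This list, like the others, was drawn up with earlier results of these data known, so the counts are descriptions. The part of gene length was not tested for it either. The 4 with the smallest p were Arc, a regulator of synaptic AMPA receptors (1.01 ± 0.12, limma adjusted p = 0.0172), Gadd45b, a stress-response gene (1.17 ± 0.15, 0.0336), Rhob, a small GTPase (0.62 ± 0.09, 0.0395), and Jund, an AP-1 subunit (0.56 ± 0.09, 0.0730). In this list, too, no promoter or TES window was called, with medians of 0.06 and 0.01. Of the genes from the EGF receptor to SRF, 23 of 24 were measured and 0 gene bodies were called, with a median log2 fold change of -0.06, and the EGF receptor gene Egfr itself was at -0.15 ± 0.05 (limma adjusted p = 0.426), the kinase gene Rps6ka2 at -0.19 ± 0.06 (0.423), Araf at -0.14 ± 0.09 (0.701) and Hras at 0.19 ± 0.11 (0.712).

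Partners and stress programs linked to IER5 and IER3 were read in the same way. Of 13 PP2A subunit genes 11 were measured and 0 were called on any window, with a gene body median of -0.02, and Ppp2r2b (-0.12 ± 0.04, limma adjusted p = 0.470), Ppp2r5c (-0.09), Ppp2r1a (-0.07) and Ppp2cb (0.07) had the smallest p. Of 18 heat shock genes 16 were measured and 0 were called, with a gene body median of 0.10. The HSP70 genes Hspa1b (1.03 ± 0.21, limma adjusted p = 0.120) and Hspa1a (1.08 ± 0.26, 0.223) had the smallest p, and as near-identical copies they may share reads. Their gene body signal was low, at 1.38 to 3.01 CPM in WT for Hspa1b and 0.733 to 2.49 for Hspa1a. Dnaja1 (0.27 ± 0.07, limma adjusted p = 0.247) and Hspa8 (0.31 ± 0.09, 0.347) followed. Of 20 p53 targets 18 were measured and 1 gene body rose, that of Cdkn1a, the inhibitor of cyclin-dependent kinases (0.52 ± 0.07, limma adjusted p = 0.0395). The gene body median of this list was 0.12, against -0.01 and 0.173% called higher over all gene bodies, and Phlda3 (0.46 ± 0.12, limma adjusted p = 0.253), Sesn2 (0.27 ± 0.09, 0.438) and Pmaip1 (0.53 ± 0.20, 0.505) followed Cdkn1a. Promoter medians were 0.05 for the PP2A genes (7 of 11 above 0), 0.19 for the heat shock genes (12 of 16) and 0.13 for the p53 targets (16 of 18). Over all promoters the median was 0.03 and 54.8% were above 0.

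Likeness to the 4 genes was described over the 6 libraries by the Pearson correlation of gene body log2 CPM, among 11761 gene bodies. Points share their library, depth and promoter share, and the correlation mixes the differences between pairs and between genotypes, so the values are descriptions. Those most alike to Ier2 were Klf2, a transcription factor, Aaas and Fbxo30 (r = 0.98 each). Those most alike to Ier3 were Ucp2, a mitochondrial carrier (r = 0.996), the linker histone gene H1fx (0.98) and Slc16a13 (0.97). For Ier5 they were Snapc2 (r = 0.996), the p53 target Sesn2 (0.98) and Jund (0.98), and for Ier5l they were Rsrp1 (r = 0.997), Bmyc (0.995) and Xbp1 (0.994). Among the 4 members, Ier3 and Ier5 were the most alike (r = 0.80), followed by Ier5 and Ier5l (0.71) and Ier2 and Ier3 (0.60), then Ier3 and Ier5l (0.23), Ier2 and Ier5 (0.18) and Ier2 and Ier5l (-0.38).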

How the data were processed

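POLR2A ChIP-seq was analysed in 3 WT and 3 Armc5 KO libraries of NPCs, grouped and numbered by their titles. Per the study's methods, chromatin was fixed and sonicated and precipitated with the RPB1 antibody. Neither spike-in nor input libraries entered. The build was GRCm38, and the submitters' processing notes list edgeR, limma, HOMER, MACS2, Picard, BWA, Trimmomatic and bcl2fastq 2.20. The authors took whole-number read counts per window with HOMER, dropped genes without signal in KO, which can hide genes lost in KO, and deposited the counts without normalization. They also deposited log2 CPM made from them with TMM and voom. Further deposited tables held the same values per window kind and were not used.

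Counts of all 36321 windows were scaled together with TMM (edgeR 4.0.16) and fitted with limma-voom (limma 3.58.1, R 4.3.3) blocked by replicate pair, with two-sided p-values adjusted over all windows (Benjamini-Hochberg), and windows with an adjusted p under 0.1 were called. Log2 ratios of windows (0.5 added to each count, genes averaging 10 or more counts in each window) were fitted with limma under the same block, its prior spread following the mean log2 ratio. Deviations from the group means were shared within the numbered pairs (correlation 0.56 to 0.88 over the windows), and the methods describe replicate pairs. No libraries of a group were copies (chi-square per degree of freedom 28.5 to 76.4). Log2 fold changes had a median SE of 0.09 in gene bodies, 0.17 in promoters and 0.20 in TES windows. The scripts were tested on simulated data. Alternatives included edgeR, DESeq2 1.42.0, other scalings and each library left out.

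The members and gene lists were chosen with earlier results of these data known. Text names every member, the 4 gene bodies of smallest p per list, the 3 gene bodies most alike to each member (Pearson correlation over 6 libraries, at least 5 CPM, prior count 2), and genes overlapping a window. Positions came from GENCODE vM21 and RefSeq.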

Additional observations from a re-analysis of the deposited data

How the results depend on the processing

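The count of called regions, 49 of 36321, was 51 with edgeR's quasi-likelihood test and 59 with DESeq2, and it was 14 with TMM on the lowest-signal gene bodies, 20 on library totals without TMM, 85 with each window kind scaled and adjusted on its own and 125 without X- and Y-linked genes. The split of called regions was 44 higher and 5 lower, against 10 higher and 4 lower with TMM on the lowest-signal gene bodies. Without the replicate block 0 regions were called, 0 of the IER regions and 0 of both ratios (limma, with 65 promoters, 35 gene bodies and 27 TES windows at an unadjusted p under 0.05), and with limma on the deposited log2 CPM 0 regions, of which 0 were of the IER genes (1445, 317 and 1146 at an unadjusted p under 0.05). The number of IER regions called, 2, was 0 under these 2 fits, with TMM on the lowest-signal gene bodies, on library totals and with each window kind on its own, and 3 with DESeq2, with the size factors of DESeq2 in limma and without X- and Y-linked genes, where the gene body of Ier5 was added. Leaving out libraries or pairs gave 0 to 4 called IER regions and 11 to 546 called regions, with 0 IER regions without pair 2 or WT replicate 2, 1 without KO replicate 2, and 4, all gene bodies, without WT or KO replicate 1. In each case a group left with fewer libraries was assumed to vary like the others. Under the block, a library without its partner adds nothing to the KO effect, so its fold changes nearly repeat those without the pair.

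The promoter to gene body ratio was called for 4 genes, and for 8 with a pseudocount of 5, 180 with a mean of at least 50 counts, 0 without a trend, and 9 to 371 with libraries or pairs left out. The ratio of Ier2 was called with at least 50 counts (adjusted p = 0.0753), and that of Ier3 without pair 1 (0.0685), WT replicate 1 or KO replicate 1. The TES to gene body ratio was called for 1 gene, 2 with a pseudocount of 5, 5 with at least 50 counts, and 1 to 59 with libraries left out. The causes were not tested. The sign of the log2 fold change turned in some windows that were not called. For the Ier3 TES window it was -0.0035 with edgeR, -0.0070 with DESeq2, -0.021 without the block, -0.040 with TMM on the lowest-signal gene bodies, -0.012 on the deposited log2 CPM and -0.057 with the Flot1 promoter reads subtracted, an alternative chosen after seeing the data. For the Ier5l promoter it was -0.029 with TMM on the lowest-signal gene bodies and -0.0079 with each window kind on its own. With libraries or pairs left out, it ranged from -0.19 to 0.49 for the Ier3 promoter, -0.032 to 0.041 for the Ier3 TES window, -0.010 to 0.19 for the Ier5 promoter, -0.0039 to 0.22 for the Ier5 TES window, -0.020 to 0.077 for the Ier5l promoter and -0.0033 to 0.12 for the Ppp2cb gene body. Ier3, with 71 to 330 reads per gene body and 93 to 416 per promoter, had the fewest reads of the 4 genes in these windows.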
